A study of Saccharomyces cerevisiae with 6 samples.

Results

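The heat shock proteins and chaperonins of *S. cerevisiae* were examined by RNA-seq as a set of 41 genes, taken by their systematic identifiers from a table of 5913 genes. The set holds 1 disaggregase (*HSP104*), 2 Hsp90 genes, 4 cytosolic Hsp70 genes, 3 nucleotide exchange factors, 2 cytosolic Hsp40 genes, 5 small or stress-induced heat shock genes, 6 mitochondrial and 2 ER chaperones, 7 Hsp90 co-chaperones, the regulator *HSF1* (YGL073W) and the 8 subunits of the cytosolic chaperonin CCT. All 41 genes were measured in every sample and passed the filter on low values. Each has 1 coding exon in the R64 annotation, and their coding lengths run from 321 to 2727 bp.

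Chaperones bind unfolded proteins and help them reach or regain their native fold, using ATP in the case of Hsp70, Hsp90, Hsp104 and the chaperonins. Hsp40 proteins deliver clients to Hsp70, exchange factors reset Hsp70 by releasing its ADP, and small heat shock proteins hold unfolded clients until Hsp104 and Hsp70 refold them. In yeast, many of these genes are transcribed by Hsf1, which binds heat shock elements, and part of them also by Msn2 and Msn4, which bind the stress response element. CCT is a double ring that folds actin, tubulin and other cytosolic proteins, and each ring holds 1 copy of every subunit.

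The comparison was between *not4Δ* cells expressing Not4RRM, a Not4 protein with amino acid changes in both its RNA recognition motif and its adjoining C3H1 domain, and *not4Δ* cells expressing Not4WT as the control. There were 3 cultures of each, 6 samples in all. Both groups shared the BY4741 background, the deletion of chromosomal *NOT4* and a centromeric *URA3* plasmid that expressed the FLAG-tagged protein from the *ADH1* promoter, and both were grown to log phase in synthetic medium without uracil. No heat shock was applied, so the values describe unstressed cultures in which every sample lacks chromosomal *NOT4*, and a strain with an intact *NOT4* locus was not analysed here.

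The deposited values are read counts per gene that the authors brought down to the coverage of the shallowest library, so the totals only ran from 14881818 to 14881884 per sample. Because the depth before scaling is unknown, errors are those between cultures and carry no separate counting error. TMM scaling (a trimmed mean of log ratios between samples) was applied to these values, and the result is called the normalised read count. Log2 of the normalised read count plus 1 was compared with limma over 5805 genes, and the threshold for a call was a change of 1.5-fold or more together with a p under 0.05 after Benjamini-Hochberg adjustment over these genes. Fold changes are Not4RRM over Not4WT on this log2 scale, which understates the change of genes with low values. The values are relative to the rest of each library, so a change in the RNA of every cell and a change in the share of cells that make it cannot be told apart. No label names a batch.

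The targeted gene was checked first. *NOT4* (listed as *MOT2*, YER068W) had 34334, 41531 and 43399 normalised reads in Not4RRM samples, against 11876, 12047 and 8883 in Not4WT samples, and with the chromosomal gene deleted these reads come from the plasmid. *URA3*, the plasmid marker, had 9518, 4631 and 4295 in Not4RRM samples, against 1006, 1172 and 1046 in Not4WT samples. Plasmid transcripts therefore differed in level between the groups, and their part in any chaperone value was not tested. *LEU2* and *MET17*, which BY4741 lacks, had between 11 and 27 in all 6 samples. Correlation between replicates on the log2 scale ran from 0.947 to 0.9935. The lowest values were those of Not4RRM replicate 1 with the other Not4RRM samples (0.9516 and 0.947). Values without this sample are given below beside part of the results, and for every gene in the plot of fold changes. The 41 genes took 1.03%, 1.23% and 1.14% of the reads in Not4RRM samples, against 1.23%, 1.60% and 1.33% in Not4WT samples, and *SSA1* and *SSA2* alone took 0.317% to 0.438% in Not4RRM samples and 0.467% to 0.668% in Not4WT samples. Neither share overlapped between the groups, by a margin under 0.01 percentage points for the whole set, and these shares move with the 10 highest genes of each library, which took 18.5% to 25.9% of the reads.

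Promoter sequence was read from the R64 genome for each gene as the 250 bases before the start codon and the first 50 bases after it. A heat shock core (GAANNTTC or TTCNNGAA on the coding strand, each of which is its own reverse complement) was present in 19 of the 41 windows, 46.3%, against 22.5% of the 5906 windows of all genes. A run of at least 3 alternating GAA and TTC units, with 2 bases between units, was present in 9 of the 41 (22.0%), against 45 windows (0.762%) of all genes, and these 9 are 20% of the 45. This run was searched for after the other motifs had been examined. The stress response element (AGGGG or CCCCT) was present in 12 of the 41, 29.3%, against 21.4% of all genes, and 8 of the 41 had both a core and a stress element. For *CPR7* and *FES1* the only stress element lay after the start codon, within the coding sequence, and *FES1* is among the 8. The share of all genes counts such matches too. Among the 8 CCT windows, 1 had a heat shock core, 0 had a run and 0 had a stress element. A match is a string of letters in this window and not a measured binding site. The sequences below are shown for the genes the results turn on, 5′ to 3′ on the coding strand, with the matched units in capitals. The runs of *SSA2* (chrXII:97691-97733, minus strand), *SSE1* (chrXVI:352434-352476, minus strand), *HSP60* (chrXII:665185-665227, minus strand) and *HSP78* (chrIV:974458-974493, minus strand) belong to 4 of the 5 genes whose Not4RRM samples all lay below the Not4WT samples. These are 4 of the 9 genes with a run, 12.2% of all tested genes lay below in this way, and for *SSA2* the margin was 2 normalised reads.
SSA2: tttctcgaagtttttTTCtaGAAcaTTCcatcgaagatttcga
SSE1: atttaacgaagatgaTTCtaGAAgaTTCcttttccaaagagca
HSP60: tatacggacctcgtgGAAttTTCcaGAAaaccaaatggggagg
HSP78: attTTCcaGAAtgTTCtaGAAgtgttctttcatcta

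The run also stands before genes whose fold change was above 0, as shown by *HSP42* (chrIV:806371-806410, plus strand) and *HSP10* (chrXV:370977-371019, minus strand). *HSP12* (chrVI:107009-107085, plus strand) had no heat shock core in its window but 2 stress elements, *HCH1* (chrXIV:108286-108323, plus strand) had a single core, and *CCT7* (chrX:207681-207718, plus strand) was the CCT gene with a core. The median log2 fold change of the 9 genes with a run was -0.29, with 4 above and 5 below 0, and that of the 12 genes with a stress element was 0.23, with 7 above and 5 below 0. The 7 include *CPR7* and *FES1* (0.32 and 0.31), whose element lies in the coding sequence, and no median was taken without them. Without Not4RRM replicate 1 the median of the 12 was 0.05, with 6 above and 6 below 0, and with the trend with coding length removed it was 0.09. For the 9 genes with a run these medians were -0.22 and -0.15. Genes that share the heat shock run thus lay on both sides of 0.
HSP42: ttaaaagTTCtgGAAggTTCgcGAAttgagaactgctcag
HSP10: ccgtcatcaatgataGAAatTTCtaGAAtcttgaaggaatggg
HSP12: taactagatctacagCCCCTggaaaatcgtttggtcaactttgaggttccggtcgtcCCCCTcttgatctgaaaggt
HCH1: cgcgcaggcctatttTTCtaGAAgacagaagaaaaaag
CCT7: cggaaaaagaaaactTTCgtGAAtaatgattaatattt

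No chaperone gene passed the threshold between Not4RRM and Not4WT. In limma 0 of the 41 and 0 of the 5805 genes tested did (0%), limma-voom also called 0, and 923 genes had an unadjusted limma p under 0.05. The median log2 fold change was -0.02 for the 41 genes and 0.05 for all tested genes, with 20 of the 41 above 0 and 21 below. At an unadjusted limma p under 0.05 there were 3 of the 41, which is 7.32%, against 15.9% of all tested genes. *HSP12* and *HCH1* were higher with Not4RRM, 4.88% of the set against 9.84% of all genes, and *HSP78* was lower, 2.44% against 6.06%. The 3 Not4RRM samples all lay above the 3 Not4WT samples for *HCH1* and *CPR7*, 4.88% of the set, against 12.4% of all genes. They all lay below for *SSA2*, *SSE1*, *HSP60*, *HSP78* and *CCT4*, 12.2% of the set, against 12.2% of all genes. Chromosome VIII, which holds none of the 41 genes, raised the shares of all genes that were higher. Of its 275 tested genes, 155 were higher at an unadjusted limma p under 0.05 and 149 lay above without overlap. In an unequal-variance test of the deposited values, which asked for 1.5-fold and p under 0.05 without adjustment, 0 of the 41 passed in either direction, against 2.2% of the genes higher and 3.81% lower. The adjusted p of the 41 genes in limma ran from 0.240 to 0.961 and the standard errors from 0.15 to 0.55 with a median of 0.23, which limits what 3 cultures a group can show for a single gene.

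**Figure D1:**
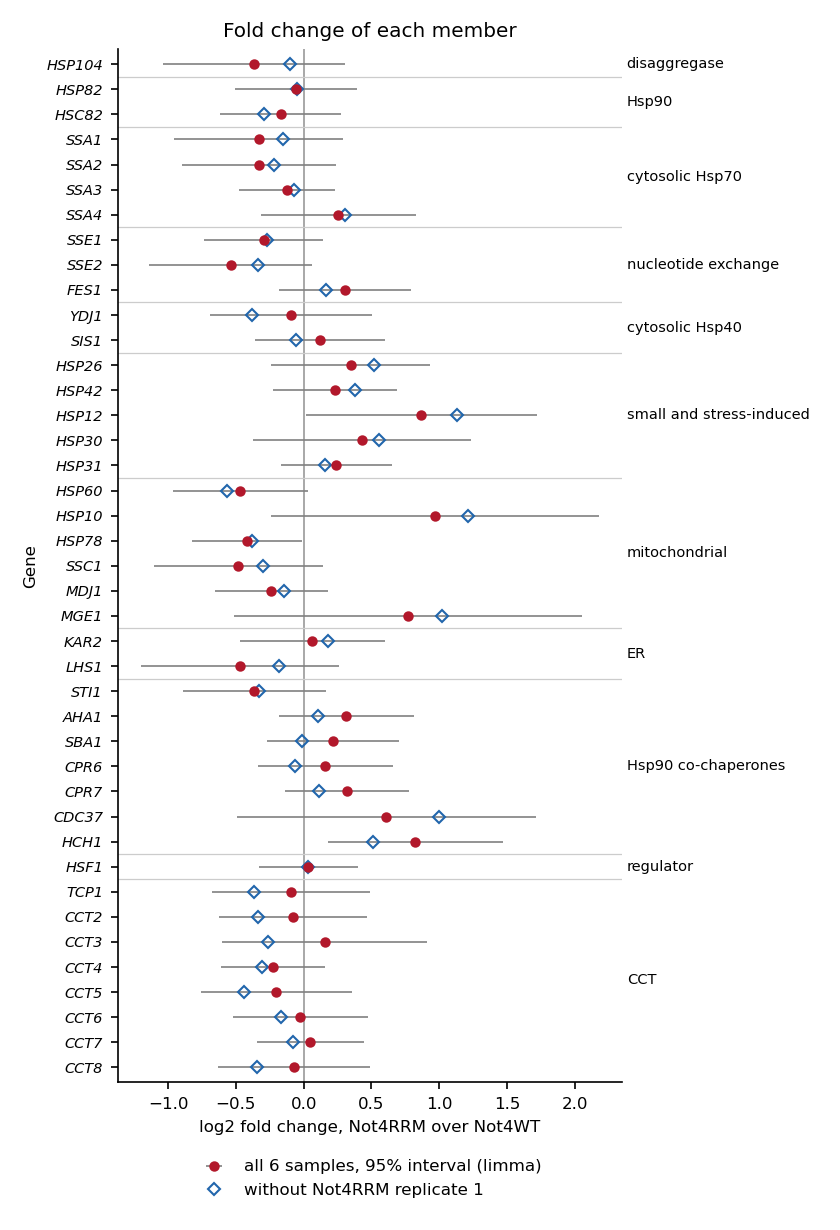
Log2 fold change (Not4RRM over Not4WT, x axis) of the 41 genes by role (y axis), with filled points and 95% limma intervals from all 6 samples and hollow diamonds from the fit without Not4RRM replicate 1. The intervals of 3 genes (*HSP12*, *HCH1* and *HSP78*) leave out 0, and all 8 CCT genes lie below 0 without Not4RRM replicate 1.

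*HSP104* (YLL026W), the hexameric disaggregase that pulls proteins out of aggregates, had 1363, 2869 and 2173 normalised reads in Not4RRM samples, against 2176, 2918 and 2866 in Not4WT samples. Its log2 fold change was -0.37 (SE 0.29, adjusted p = 0.537 from limma). The low value was that of Not4RRM replicate 1, and without that sample the log2 fold change was -0.10. The cytosolic Hsp90 pair showed less spread. *HSP82*, the heat-inducible copy, had 895, 987 and 931 in Not4RRM samples, against 768, 1162 and 1041 in Not4WT samples (log2 fold change -0.06, SE 0.19). *HSC82*, the copy made in unstressed cells, had 5249, 4501 and 4056 in Not4RRM samples, against 4516, 5585 and 5402 in Not4WT samples (log2 fold change -0.17, SE 0.19, and -0.29 without Not4RRM replicate 1). The groups overlapped for both copies.

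The 2 constitutive Hsp70 genes were the highest of the cytosolic chaperones per kb of coding length. *SSA1* (YAL005C) had 20064, 29682 and 31359 normalised reads in Not4RRM samples, against 28717, 40600 and 31886 in Not4WT samples. *SSA2* (YLL024C) had 28446, 37277 and 38009 in Not4RRM samples, against 38011, 51098 and 41011 in Not4WT samples. For *SSA2* the groups did not overlap, by a margin of 2 normalised reads between the highest Not4RRM and the lowest Not4WT sample. The log2 fold changes of -0.33 for both (SE 0.27 and 0.24) did not pass the test (adjusted p = 0.545 and 0.510 from limma), and they were -0.15 and -0.22 without Not4RRM replicate 1. Their coding sequences are 96.8% identical, and 45.8% of the 100-base windows of *SSA1* occur unchanged in *SSA2*, so reads could have been assigned to either copy and each value is uncertain. The heat-inducible copies were far lower. *SSA3* had 438, 508 and 527 in Not4RRM samples, against 558, 540 and 504 in Not4WT samples. *SSA4* had 848, 1133 and 847 in Not4RRM samples, against 558, 918 and 931 in Not4WT samples (log2 fold change 0.26, SE 0.25). Both overlapped between the groups.

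Ratios between copies, taken within each sample, do not depend on the scaling of the samples. The log2 ratio of *SSA4* to *SSA2* averaged -5.20 ± 0.25 in Not4RRM samples and -5.78 ± 0.31 in Not4WT samples (SD, n = 3 each), a difference of 0.58 (two-sided exact permutation p = 0.2). The other pairs differed by 0.20 for *SSA3* over *SSA2*, 0.11 for *HSP82* over *HSC82*, -0.00 for *SSA1* over *SSA2* and -0.25 for *SSE2* over *SSE1*. With 3 samples against 3 the test cannot give a p under 0.1, and after adjustment over the 5 pairs the exact permutation p ran from 0.625 to 1. No change in the balance between inducible and constitutive copies was detected at this number of samples.

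Among the exchange factors for Hsp70, both Hsp110 genes had a log2 fold change below 0 and *FES1* one above 0, with no adjusted call. *SSE1* had 7050, 8001 and 7634 normalised reads in Not4RRM samples, against 9778, 10018 and 8096 in Not4WT samples (log2 fold change -0.29, SE 0.19, adjusted p = 0.457 from limma), and the groups did not overlap. *SSE2*, its stress-induced copy, had 771, 1322 and 1135 in Not4RRM samples, against 1184, 1833 and 1634 in Not4WT samples, with the lowest log2 fold change of the set at -0.54 (SE 0.26, adjusted p = 0.351 from limma, and -0.34 without Not4RRM replicate 1). *FES1* had 563, 468 and 412 in Not4RRM samples, against 351, 493 and 332 in Not4WT samples (log2 fold change 0.31, SE 0.21, and 0.16 without Not4RRM replicate 1). The groups overlapped for *SSE2* and *FES1*. The J-domain proteins that recruit clients to Ssa proteins showed 1 high library. *YDJ1* had 5988, 3384 and 3490 in Not4RRM samples, against 4132, 4897 and 4242 in Not4WT samples, so Not4RRM replicate 1 was above and the other Not4RRM samples below the whole Not4WT range, and the log2 fold change of -0.09 became -0.38 without replicate 1. *SIS1* had 5538, 4198 and 3868 in Not4RRM samples, against 4323, 4457 and 3658 in Not4WT samples (log2 fold change 0.12, SE 0.21, and -0.06 without replicate 1).

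The small and stress-induced heat shock genes all had a log2 fold change above 0, with a median of 0.35 over the 5 and 1 gene at an unadjusted limma p under 0.05. Of all tested genes, 9.84% were higher at that p. *HSP12* (YFL014W), a small membrane-associated protein induced by many stresses, had 1503, 2948 and 2559 normalised reads in Not4RRM samples, against 853, 1103 and 1978 in Not4WT samples. Its mean was 2337 ± 747 in Not4RRM samples and 1311 ± 591 in Not4WT samples (SD, n = 3 each), and the log2 fold change was 0.87 (SE 0.37, adjusted p = 0.305 from limma). Not4RRM replicate 1 lay below Not4WT replicate 3, so the groups overlapped. *HSP42*, a small heat shock protein of the α-crystallin family, had 609, 958 and 788 in Not4RRM samples, against 674, 672 and 624 in Not4WT samples (log2 fold change 0.23, SE 0.20, and 0.38 without Not4RRM replicate 1). *HSP26*, of the same family, had 586, 849 and 912 in Not4RRM samples, against 467, 780 and 605 in Not4WT samples (log2 fold change 0.35, SE 0.25). In both genes replicates 2 and 3 of Not4RRM were above every Not4WT sample, and replicate 1 was not. *HSP30*, a plasma membrane protein that restrains the proton pump, and *HSP31*, a DJ-1 family protein, had log2 fold changes of 0.43 and 0.24 with overlapping groups, and of 0.56 and 0.16 without Not4RRM replicate 1. Without Not4RRM replicate 1 the median of the 5 genes was 0.52, all 5 remained above 0, and the lowest adjusted limma p was 0.0841, for *HSP12*. Each of the 5 genes had a log2 fold change above 0 under all 17 alternative settings tried, but these settings reuse the same 6 libraries. With the trend with coding length removed, as described below, the median of the 5 was 0.25. *HSP12*, *HSP30*, *HSP42*, *HSP26* and *HSP31* then had log2 fold changes of 0.56, 0.42, 0.25, 0.15 and 0.09.

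Of the 6 mitochondrial chaperones, the 2 shortest genes (*HSP10* and *MGE1*) had log2 fold changes above 0 and the other 4 below. *HSP60* (YLR259C), the mitochondrial chaperonin, had 3289, 3201 and 2510 normalised reads in Not4RRM samples, against 3366, 4887 and 4241 in Not4WT samples (log2 fold change -0.47, SE 0.21, adjusted p = 0.332 from limma). *HSP10*, which forms the lid of the Hsp60 ring, had 8764, 15325 and 15424 in Not4RRM samples, against 6546, 3072 and 13782 in Not4WT samples, the highest log2 fold change of the set at 0.97 (SE 0.52, adjusted p = 0.390 from limma). Over the 17 alternative settings the log2 fold change of *HSP10* ran from 0.42 to 1.48. *HSP60* lay lower in every Not4RRM sample than in any Not4WT sample, while for *HSP10* Not4WT replicate 3 lay within the Not4RRM range. *HSP78*, the mitochondrial relative of Hsp104, had 955, 1214 and 971 in Not4RRM samples, against 1282, 1545 and 1350 in Not4WT samples, with no overlap. Its log2 fold change was -0.42 (SE 0.18, unadjusted p = 0.0462 and adjusted p = 0.305 from limma). *SSC1*, the mitochondrial Hsp70, had 11229, 18321 and 16142 in Not4RRM samples, against 17838, 25988 and 19545 in Not4WT samples (log2 fold change -0.48, SE 0.27, and -0.30 without Not4RRM replicate 1). The groups overlapped in 1 sample, Not4RRM replicate 2, which exceeded Not4WT replicate 1. Its J-domain partner *MDJ1* had a log2 fold change of -0.24 (SE 0.18, and -0.14 without Not4RRM replicate 1). Its exchange factor *MGE1* had 736, 1162 and 1468 in Not4RRM samples, against 745, 260 and 1304 in Not4WT samples, so a log2 fold change of 0.77 came with the largest standard error of the set (0.55). Over the 17 alternative settings the log2 fold change of *MGE1* ran from 0.13 to 1.26.

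**Figure D2:**
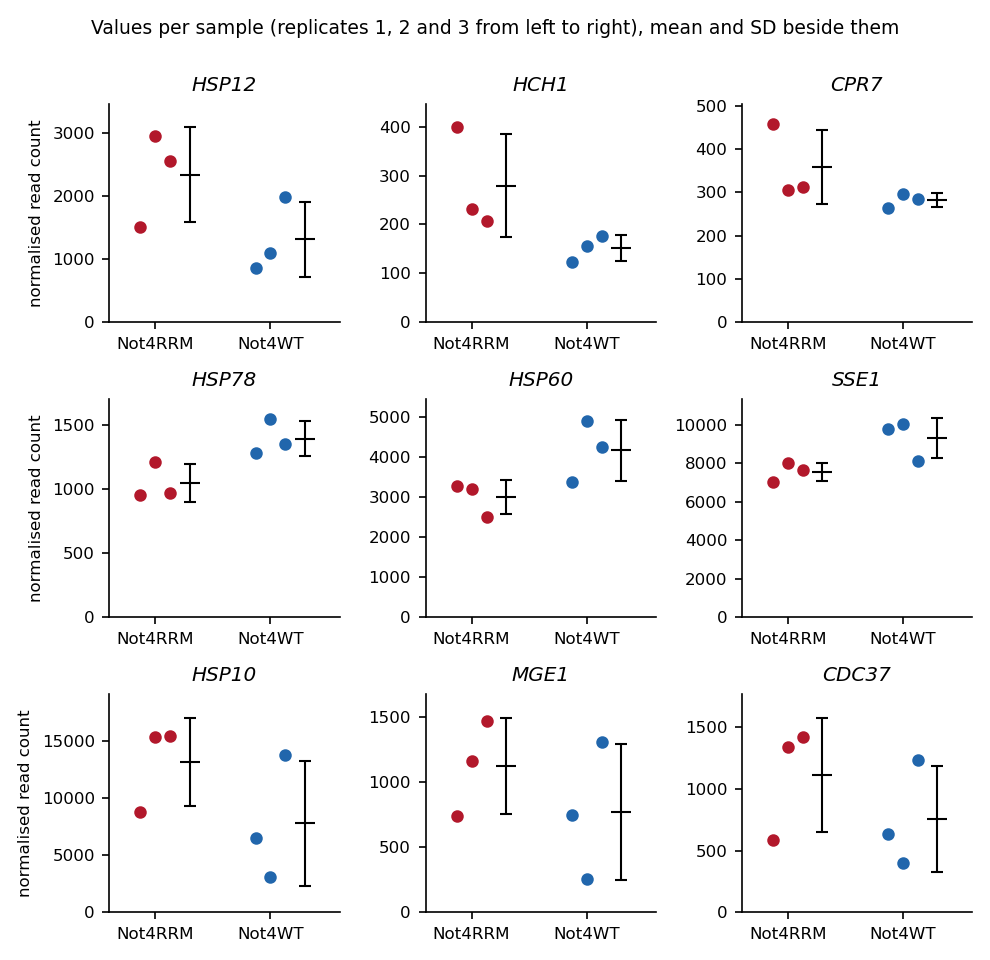
Normalised read count (y axis, from 0) of 9 genes in the Not4RRM samples and the Not4WT samples, with replicates 1, 2 and 3 from left to right and the mean and SD beside them. *HCH1*, *CPR7*, *HSP78*, *HSP60* and *SSE1* show no overlap between groups, while *HSP10*, *MGE1* and *CDC37* share a low Not4WT replicate 2 and a high Not4WT replicate 3.

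In the ER, *KAR2*, the luminal Hsp70 known as BiP, had 6325, 8895 and 7990 normalised reads in Not4RRM samples, against 6171, 9033 and 7062 in Not4WT samples, which is a log2 fold change of 0.06 (SE 0.23, and 0.18 without Not4RRM replicate 1). Its exchange factor *LHS1* had 2805, 4929 and 5782 in Not4RRM samples, against 7818, 5543 and 4899 in Not4WT samples (log2 fold change -0.47, SE 0.32, and -0.18 without Not4RRM replicate 1). The groups overlapped in both genes.

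Of the 7 Hsp90 co-chaperones, 6 had a log2 fold change above 0, with a median of 0.31. The fit without Not4RRM replicate 1 had 4 above and 3 below 0, with a median of 0.10. *HCH1*, a relative of the Hsp90 activator Aha1, had 400, 231 and 206 normalised reads in Not4RRM samples, against 124, 156 and 176 in Not4WT samples. It had the lowest adjusted p of the set (log2 fold change 0.82, SE 0.28, adjusted p = 0.240 from limma) and no overlap, and its log2 fold change was 0.51 without Not4RRM replicate 1. *CPR7*, a cyclophilin that binds Hsp90, had 458, 306 and 313 in Not4RRM samples, against 264, 297 and 285 in Not4WT samples, also with no overlap (log2 fold change 0.32, SE 0.20, and 0.11 without Not4RRM replicate 1). *AHA1*, *SBA1* and *CPR6*, an ATPase activator, a p23 protein and a second cyclophilin, had 2151, 1948 and 3866 in Not4RRM replicate 1. The other 5 samples ran from 1164 to 1525 for *AHA1*, 1222 to 1312 for *SBA1* and 2481 to 2757 for *CPR6*. Without replicate 1, the log2 fold changes of these 3 genes were 0.10, -0.01 and -0.07, against 0.31, 0.22 and 0.16 with it. *CDC37*, which brings protein kinases to Hsp90, had 585, 1339 and 1424 in Not4RRM samples, against 632, 400 and 1239 in Not4WT samples (log2 fold change 0.61, SE 0.47, and 1.00 without Not4RRM replicate 1). *STI1*, which links Hsp70 to Hsp90, was the member below 0, with 5217, 6291 and 5539 in Not4RRM samples, against 6448, 9544 and 6279 in Not4WT samples (log2 fold change -0.36, SE 0.23).

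The transcript of the regulator itself was even. *HSF1* had 1541, 1674 and 1570 normalised reads in Not4RRM samples, against 1662, 1579 and 1436 in Not4WT samples, a log2 fold change of 0.03 (SE 0.16, 95% interval -0.33 to 0.40). It had the smallest pooled SD between replicates of the 41 genes, 0.0877 on the log2 scale.

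The CCT subunits (*TCP1*, *CCT2*, *CCT3*, *CCT4*, *CCT5*, *CCT6*, *CCT7* and *CCT8*) had log2 fold changes between -0.23 and 0.15 with a median of -0.08. Their adjusted limma p ran from 0.502 to 0.961. *CCT3* had 3093, 1290 and 1424 normalised reads in Not4RRM samples, against 1736, 1531 and 1549 in Not4WT samples. Its log2 fold change was 0.15, and -0.27 without Not4RRM replicate 1. *CCT4* had 2200, 2121 and 1814 in Not4RRM samples, against 2376, 2441 and 2334 in Not4WT samples, the only CCT gene with no overlap (log2 fold change -0.23, SE 0.16). For all 8 genes the highest Not4RRM sample was replicate 1, and the median deviation of the 8 from their means over the 6 samples was 0.38 in Not4RRM replicate 1, -0.18 in replicate 2 and -0.26 in replicate 3, against 0.05, 0.14 and -0.05 in Not4WT replicates 1, 2 and 3. Without Not4RRM replicate 1 all 8 were below 0, with a median of -0.32, and the lowest adjusted p was 0.142. The sign of *CCT3* and *CCT7* changed without that culture, and with the trend with coding length removed, as described below, the median of the 8 was 0.04.

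**Figure D3:**
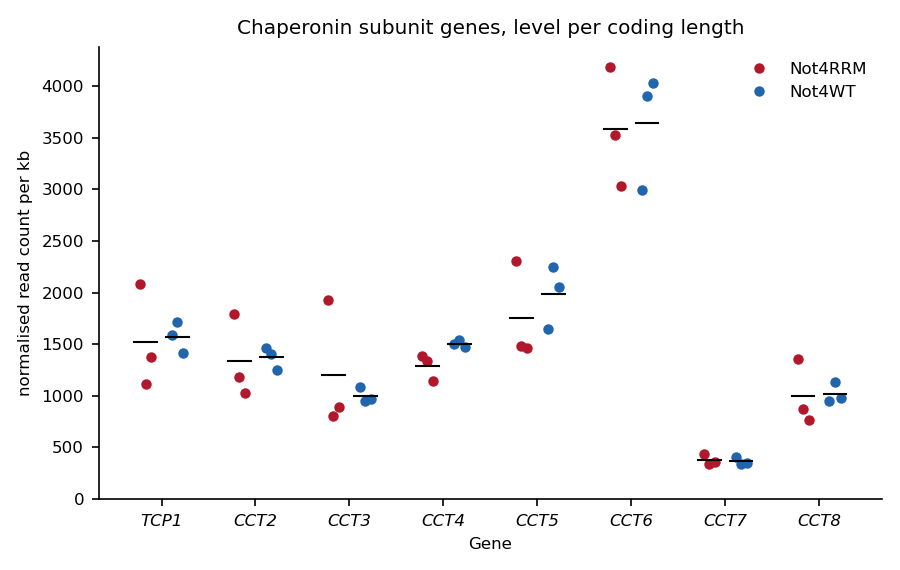
Normalised read count per kb of coding sequence (y axis, from 0) of the 8 CCT genes in each Not4RRM and Not4WT sample, with bars at the group means. *CCT6* stands above and *CCT7* below the other subunits in every sample.

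Per kb of coding length, the CCT genes differed in level far more than the groups did. *CCT6* (YDR188W) had 4185, 3522 and 3035 normalised reads per kb in Not4RRM samples, against 2994, 3905 and 4029 in Not4WT samples. *CCT7* (YJL111W) had 437, 343 and 359 per kb in Not4RRM samples, against 409, 338 and 352 in Not4WT samples, although the proteins are present in equal numbers in the ring. The ratio of *CCT6* to *CCT7* per kb was 9.44 ± 0.92 in Not4RRM samples and 10.1 ± 2.4 in Not4WT samples (SD, n = 3 each), and the 6 other subunits lay between 763 and 2301 per kb in all samples. Whether mappability or library bias sets part of these levels was not tested. Across the whole set, *HSP10* and *SSA2* had the highest means per kb over the 6 samples, 32660 and 20300. *HSP10* ran from 9571 to 48050 per kb and was below *SSA2*, *SSA1* and *SSC1* in Not4WT replicate 2. *CPR7* and *SSA3* had the lowest means, 271 and 263 per kb.

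Sample patterns cut across the groups. Not4RRM replicate 1 was the highest of its group in 19 of the 41 genes and the lowest in 21, and Not4WT replicate 2 was the highest of its group in 25. Relative to the mean of each gene over 6 samples, Not4RRM replicate 1 was high in Hsp90 co-chaperones (median deviation 0.52 on the log2 scale), Hsp40 genes (0.43) and CCT genes (0.38). It was low in *HSP104* (-0.76), the ER genes (-0.55) and cytosolic Hsp70 genes (-0.33). Without it, 372 of 5793 genes passed the limma threshold (6.42%), and 0 of the 41 chaperone genes did. At an unadjusted p under 0.05 that fit held 10 of the 41 (24.4%), against 29.2% of all genes (1693). Chromosome VIII, which holds none of the 41, had 127 of the 372 genes past the threshold and 225 of the 1693, so it raised both shares of all genes. The spread between replicates was greatest in *MGE1*, *HSP10* and *CDC37*, whose pooled SD was 0.91, 0.83 and 0.77 on the log2 scale.

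**Figure D4:**
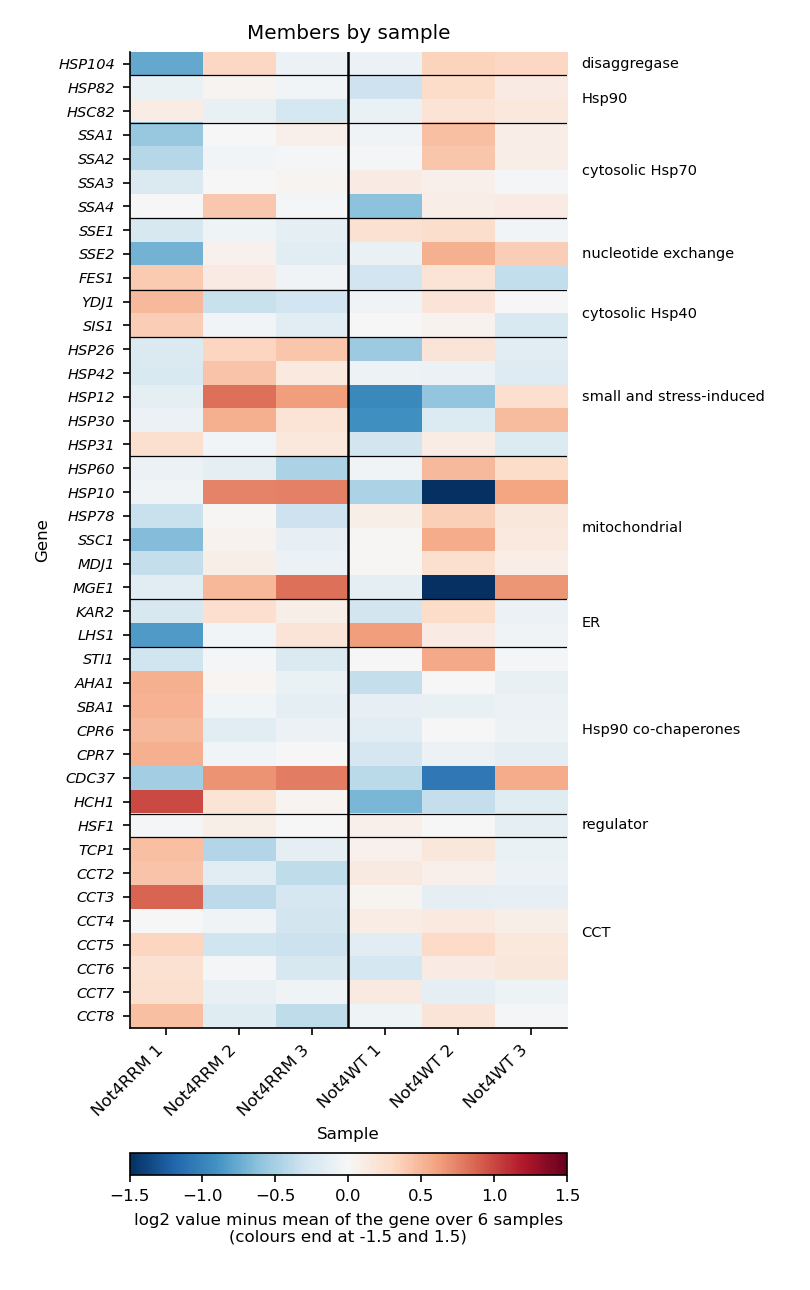
Deviation of each log2 value from the mean of its gene over the 6 samples (colour, red high and blue low), for the 41 genes by role (y axis) in Not4RRM and Not4WT samples (x axis). Not4RRM replicate 1 is high in all CCT genes other than *CCT4*, and Not4WT replicate 2 is low in *HSP10*, *MGE1* and *CDC37*.

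Fold change moved with coding length in this set. The Spearman correlation of log2 fold change with coding length was -0.78 over the 41 genes and -0.41 over 5801 tested genes with a length, given as a description since the genes share the same 6 libraries. Without Not4RRM replicate 1 the values were -0.55 and -0.18. All 9 chaperone genes under 1000 bp had a log2 fold change above 0, with a median of 0.43 against 0.28 for the 2226 genes of that length. Of the 9 genes of 2000 bp or more, 7 were below 0, with a median of -0.29 against -0.13 for 1325 genes. When the trend with length was removed from each sample by loess, 0 of the 41 kept an unadjusted limma p under 0.05, against 16.3% of all genes. The log2 fold changes of *HSP12*, *HCH1*, *HSP10* and *HSP78* were then 0.56, 0.55, 0.65 and -0.25. The part of RNA integrity or fragment selection in this trend was not tested.

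**Figure D5:**
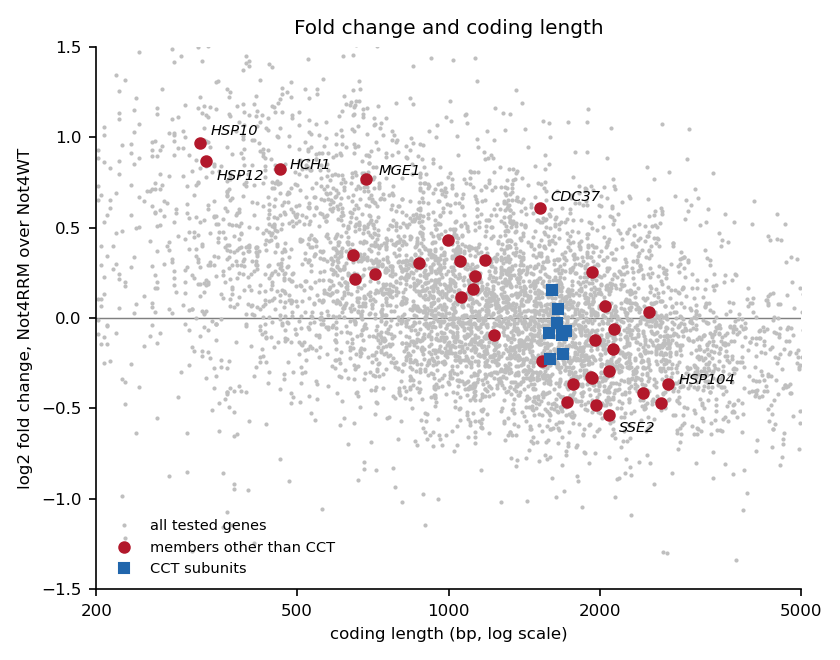
Log2 fold change (Not4RRM over Not4WT, y axis) against coding length (x axis, log scale) for all tested genes (grey), CCT genes (blue squares) and the other chaperone genes (red), with 219 genes outside the axes. Short chaperone genes such as *HSP10* and *HSP12* lie above 0 and long ones such as *HSP104* below.

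A further 50 genes of protein folding and stress control, in 5 lists, were placed beside the set. None passed the limma threshold. At an unadjusted p under 0.05, 7 of the 50 were higher and 2 lower, against 9.84% and 6.06% of all tested genes. Of the 50, 3 lie on chromosome VIII, where 155 of 275 tested genes were higher at that p. These are *IRE1*, the cytosolic co-chaperone *PIH1* and *SKN7*, and *IRE1* and *PIH1* are among the 7. The median log2 fold change of the 50 was 0.14, and 0.02 without Not4RRM replicate 1. By list the median was 0.29 for 19 cytosolic co-chaperones (5 higher and 0 lower at that p), 0.15 for 11 ER folding genes (1 and 1), 0.01 for 8 mitochondrial folding genes (0 and 1), 0.14 for the 3 copies of *HSP31* (0 and 0) and -0.29 for 9 stress regulators (1 and 0). The medians without Not4RRM replicate 1 were 0.12, 0.13, -0.09, 0.39 and -0.03. *JJJ3*, a J-domain protein of diphthamide synthesis, had 356, 505 and 617 normalised reads in Not4RRM samples, against 229, 125 and 276 in Not4WT samples (log2 fold change 1.27, SE 0.33, adjusted p = 0.166 from limma). *BTN2*, which sorts misfolded proteins into deposits, had 105, 129 and 122 in Not4RRM samples, against 64, 65 and 72 in Not4WT samples (log2 fold change 0.81, SE 0.19, adjusted p = 0.131 from limma). In both genes the groups did not overlap. *JJJ2*, another J-domain gene, had 262, 219 and 265 in Not4RRM samples, against 171, 132 and 168 in Not4WT samples (log2 fold change 0.66, SE 0.18). *SIL1*, an exchange factor for Kar2, had 2844, 2337 and 2586 in Not4RRM samples, against 1728, 1601 and 1771 in Not4WT samples (log2 fold change 0.60, SE 0.16). *IRE1*, the ER sensor of unfolded proteins, had 875, 1766 and 1848 in Not4RRM samples, against 819, 769 and 852 in Not4WT samples (log2 fold change 0.80, SE 0.29). *IRE1* lies on chromosome VIII, where the median log2 fold change of 275 tested genes was 0.65 and the median deviation from the mean of each gene was -0.02, 0.47 and 0.48 in Not4RRM samples, against -0.30, -0.32 and -0.30 in Not4WT samples, and none of the 41 chaperone genes is on that chromosome. Without Not4RRM replicate 1, *IRE1*, *BTN2*, *JJJ3* and the calnexin gene *CNE1* passed the threshold (adjusted p = 0.0155, 0.0433, 0.0467 and 0.0487 from limma), with *CNE1* lower. These are 4 of the 50 genes, against 6.42% of all genes in the same fit.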

How the data were processed

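RNA-seq of 3 Not4RRM and 3 Not4WT cultures was analysed, grouped by sample title. According to the paper's methods and the labels, the authors trimmed Ion Torrent reads, aligned them to the S288C transcriptome (R64) with STAR and counted reads per transcript. The aligner's version is not given in the sources used here. The deposited score of each gene is this read count, scaled by the authors to the library of lowest coverage and rounded, so tests made for raw counts were not used. The paper and the labels name different library kits, and how reads matching 2 genes were treated is not given in the sources used here.

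A row without a gene name was left out. The 5805 genes tested, of 5913, reached 10 in 3 or more samples and 15 in total. Values were scaled by TMM (30% of ratios and 5% of levels trimmed at each end), and log2 of the value plus 1 was fitted with limma 3.58.1 in R 4.3.3 (trended prior variance, group as the single term). Code was tested on simulated data. Motifs, lengths and coordinates came from the RefSeq R64 genome, to which 5907 identifiers matched. No 2 replicates looked like 1 library (at most 68 genes had identical values). The limma p-values set the difference between groups against the spread between these cultures, which the prior variance pools in part over genes of similar level.

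All 41 genes are named. Values per sample are given where the unadjusted limma p was under 0.05, where groups did not overlap, for the highest and lowest fold change of each role of 3 or more genes and for copies, and others were added after their values were seen. Of the other lists, the 5 largest fold changes at an unadjusted p under 0.05 are named, and *CNE1*, *PIH1* and *SKN7* were added later. The members and lists were chosen with earlier results of these data known. Alternatives were other scalings, pseudocounts, filters, spread models, a replicate block, removal of the length trend by loess (span 0.5) and each sample left out.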

Additional observations from a re-analysis of the deposited data

How the results depend on the processing

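No chaperone gene passed the adjusted threshold under any limma alternative. The unequal-variance test of the deposited values was run without adjustment. At 1.5-fold and p under 0.05 it passed 0 of the 41, against 2.2% of all genes higher and 3.81% lower. The 3 genes at an unadjusted limma p under 0.05 became 0 with the length trend removed, 1 with a constant prior variance and 1 to 10 with 1 sample left out (10 without Not4RRM replicate 1, 6 without Not4WT replicate 3). The 7 genes without overlap became 11 with equal totals, 4 with the length trend removed and 7 to 18 with 1 sample left out (18 without Not4RRM replicate 1). Leaving a sample out makes non-overlap easier to reach in any gene, so the rise to 18 is no result about the chaperone genes. Shares of all genes without overlap are not given for these settings, so the changes to 11 and 4 are no result about the chaperone genes either. For the unadjusted p such shares are given, among these alternatives, only without Not4RRM replicate 1 and with the length trend removed. The other counts at that p are likewise no result about the chaperone genes. The median log2 fold change of -0.02 over the 41 genes became -0.15 with equal totals, which moved the median of all genes by -0.12, and 0.084 with the length trend removed, and it ran from -0.082 to 0.066 with 1 sample left out. For the 33 genes other than CCT, 0.06 became -0.061 with equal totals and ran from -0.050 to 0.13 with 1 sample left out. For CCT, -0.08 ran from -0.32 to 0.07. These medians have no test, and why they moved was not tested.

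The deviations of same-numbered samples had correlations of 0.07, -0.15 and 0.38, against -0.37 to 0.30 for samples of different number. These values cannot settle whether the cultures were paired, which the sample titles do not say. A replicate block left 0 genes past the threshold and 3 at an unadjusted p under 0.05, with a median of -0.02. These were *HSP12*, *HCH1* and *SSE2*, which took the place of *HSP78*. With the block and the length trend removed there were 2, and the median was 0.084. Shares of all genes at that p are not given for the fits with a block, so the counts of 3 and 2 are no result about the chaperone genes. No block was fitted for overlap or for the ratios between copies. Other spread models were run for the counts of calls and for each gene but not for the medians, and DESeq2 was not run because the values are not raw counts. The depth before scaling is unknown, so genes of low value such as *HCH1* have an unknown counting error.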
